A study of Rattus norvegicus with 6 samples.

Results

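The aldo-keto reductases are enzymes that use NADPH to reduce aldehydes and ketones to alcohols, and 6 of their genes are described here in the renal cortex of rats: Akr1b8, Akr7a3, Akr7a2, Akr1a1, Akr1b1 and Akr1c14. They are 6 of the 15277 gene symbols that could be assigned to the array. The members were found as all probes whose transcript accession maps to 1 of these 6 symbols, which gave 7 probes of the 61526 used. Each gene had 1 probe except Akr1b1, which had 2. The family was picked with earlier results of the same arrays in view, including the opposite shifts of Akr1b8 and Akr7a3, so the difference between treated and control animals is given for the members as a description, with no test.

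The study set 3 male Sprague-Dawley rats dosed with o-anthranilic acid (1000 mg/kg/day over 4 weeks) against 3 male Sprague-Dawley rats dosed with corn oil, the vehicle, over the same 4 weeks. All animals were bought at 5 weeks of age. o-Anthranilic acid is ortho-aminobenzoic acid, an aromatic acid that mammals also make from tryptophan. Each animal's renal cortex gave 1 Agilent array, on which Cy3-labelled copies of its total RNA were measured in a single colour.

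In the kidney, aldo-keto reductases act on sugars, on aldehydes formed from lipids and on foreign compounds. Akr1b1, aldose reductase, turns glucose into sorbitol and is best known from the hypertonic medulla. Several rodent genes of the family are switched on by Nrf2, a transcription factor that answers oxidants and electrophiles, and Akr7a3 of rat liver is a classic inducible example.

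Between 63.7% and 68.3% of probes on the treated arrays, and between 66.0% and 69.3% on the vehicle arrays, stood well above background, and no spot was saturated. The number of arrays limited the precision. Replicate 2 of the treated animals was alone on its slide and the other 5 arrays shared 1 slide. All 12 markers of the proximal tubule, the main segment of the cortex, were measured, with a median log2 fold change of -0.01. The summed level, in multiples of each array's 75th percentile, ranged from 2096 to 2236 in treated and 2200 to 2339 in vehicle animals. Of the 8 measured markers of its straight part, 4 were higher and 4 lower, with a median of 0.04 and overlapping groups for all 8. They ran from -0.20 for Acsm2 to 1.38 ± 0.62 (SE) for Slc22a7. Slc7a13 and Agt were also high, at 1.18 ± 0.61 and 0.95 ± 0.61, and the rest of these markers lay between -0.20 and 0.10. The 6 inner medulla and thin limb markers had a median of 0.14, and the 7 fibroblast and smooth muscle markers 0.18. Medians lay from -0.12 to -0.0050 for thick ascending limb, distal convoluted tubule, collecting duct, podocyte, endothelium, macrophage and lymphocyte lists. The 5 measured erythrocyte markers had a median of 0.46. Their summed level was 428 to 525 in treated and 333 to 454 in vehicle animals. The part of any of these marker lists in the results below was not tested. Of 6 markers of the adrenal cortex, 4 (Star, Cyp11a1, Cyp11b1 and Mc2r) were not well above background on enough arrays to be kept. Cyp21a1 was well above background on all 6 arrays, with a log2 fold change of 0.24 ± 0.18 (SE). Cyp11b2 was well above background on 0 treated and 3 vehicle arrays, at -6.04, -6.04 and -5.91 in treated animals, against -5.47, -5.65 and -5.47 in vehicle animals, and no fold is given.

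The start regions of Akr1b8, Akr7a3 and Akr7a2 are shown because Akr1b8 and Akr7a3 shifted in opposite directions, while Akr7a2 is the neighbour and closest relative of Akr7a3. The sequences are from RefSeq on the rat build GRCr8, and 5 of the 6 members had one in that table, Akr1b1 being the one without. Each runs 5′ to 3′ on the plus strand from 250 bases before to 50 bases after the gene's start. Capitals mark matches to 5 motifs searched on both strands: TGACNNNGC, the core of the antioxidant response element bound by Nrf2, TGANTCA, the AP-1 site, GCGTG, the core bound by the aryl hydrocarbon receptor, GGGCGG, the GC box, and TATAAA, the TATA box. Matches of TGACNNNGC and TGANTCA can overlap each other.
Akr1b8, GRCr8 chr4:63964171-63964470: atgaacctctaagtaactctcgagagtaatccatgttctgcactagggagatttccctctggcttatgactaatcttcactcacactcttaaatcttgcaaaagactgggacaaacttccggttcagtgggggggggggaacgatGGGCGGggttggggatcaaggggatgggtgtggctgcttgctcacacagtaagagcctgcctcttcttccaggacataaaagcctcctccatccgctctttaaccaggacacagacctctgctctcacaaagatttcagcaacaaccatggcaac
Akr7a3, GRCr8 chr5:156876471-156876770: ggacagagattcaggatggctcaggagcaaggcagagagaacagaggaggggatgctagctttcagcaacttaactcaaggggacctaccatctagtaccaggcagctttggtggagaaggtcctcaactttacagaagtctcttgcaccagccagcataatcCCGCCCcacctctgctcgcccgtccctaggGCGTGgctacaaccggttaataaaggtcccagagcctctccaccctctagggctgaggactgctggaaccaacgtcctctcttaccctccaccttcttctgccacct
Akr7a2, GRCr8 chr5:156835339-156835638: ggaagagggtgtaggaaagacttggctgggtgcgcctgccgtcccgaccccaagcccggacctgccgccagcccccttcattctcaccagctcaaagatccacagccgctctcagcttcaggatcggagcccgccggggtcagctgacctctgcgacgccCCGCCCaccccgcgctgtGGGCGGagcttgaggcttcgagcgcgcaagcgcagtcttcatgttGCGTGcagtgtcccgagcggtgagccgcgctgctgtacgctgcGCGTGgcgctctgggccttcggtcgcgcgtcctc

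The Akr1b8 window held 1 GC box, from base -105 relative to the start. The Akr7a3 window held 1 GC box, in reverse orientation from base -87, and 1 GCGTG at base -57. The Akr7a2 window held 2 GC boxes and 2 copies of GCGTG. GC boxes were in 33.1% and GCGTG in 29.7% of all 33469 start regions of the same length. The antioxidant core, found in 12.1% of start regions, the AP-1 site, found in 7.33%, and TATAAA, found in 14.2%, were in none of these 3 windows. A match describes letters only, and the windows end 250 bases upstream of the start.

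Akr1b8 was the member with the lowest values in treated animals relative to vehicle, and Akr7a3 was the only one of the 5 measured members with higher ones. Akr7a2, Akr1a1 and Akr1b1 differed by less than 0.4 on the log2 scale, all with lower means in treated animals, and Akr1c14 was near background. Levels are given as the log2 of the background-corrected signal over the 75th percentile of the same array, a scale on which 0 is the brightness of the 75th percentile probe. A level of 1 probe cannot be set against that of another. In tissue RNA of this kind, fewer cells of a type and less RNA per cell cannot be told apart.

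Akr1b8 (NM_173136) encodes an aldose reductase-like protein that reduces aliphatic and aromatic aldehydes. Its log2 level was 0.35, 0.52 and 0.72 in the 3 treated animals, against 2.15, 2.39 and 2.71 in the 3 vehicle animals. The highest treated animal lay 1.43 below the lowest vehicle animal, a gap that exceeded the whole range of either group, which was 0.36 in treated and 0.56 in vehicle animals. The mean was 0.53 ± 0.18 in treated and 2.42 ± 0.28 in vehicle animals (SD, n = 3 each), which put treated animals 3.70-fold lower (log2 fold change -1.89, SE 0.17). On the scanner's linear scale the processed signal was 1195 to 1602 in treated and 4104 to 5708 in vehicle animals, well above background on all 6 arrays. Of 32859 features on the array, 27 had a log2 fold change at least as low, Akr1b8 included.

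Akr7a3 (NM_013215), the aflatoxin B1 aldehyde reductase of rat, stood the other way. Its log2 level was 7.41, 7.68 and 7.50 in treated animals, against 6.90, 6.59 and 6.70 in vehicle animals. The groups did not overlap, with 0.51 between the lowest treated and the highest vehicle animal, more than the range of 0.27 in treated and of 0.31 in vehicle animals. The mean was 7.53 ± 0.14 in treated and 6.73 ± 0.16 in vehicle animals (SD, n = 3 each), which put treated animals 1.74-fold higher (log2 fold change 0.80, SE 0.12). There were 309 features with a log2 fold change at least as high, Akr7a3 included. The processed signal of 159144 to 201053 in treated and 90962 to 110328 in vehicle animals was among the brighter part of the array, and no spot of the probe was marked as saturated.

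Akr7a2 (NM_134407) encodes the paralogue of Akr7a3, an enzyme that reduces succinic semialdehyde and other aldehydes. Its log2 level was 5.99, 5.88 and 5.91 in treated animals, against 5.996, 5.94 and 6.15 in vehicle animals. The groups overlapped, and the log2 fold change was -0.10 ± 0.09 (SE). Between these neighbouring genes the difference within each array, Akr7a3 minus Akr7a2, was larger on every treated array than on any vehicle array. Relative to its vehicle mean it was 0.72, 1.09 and 0.89 on the treated arrays, against 0.20, -0.05 and -0.15 on the vehicle arrays, a mean difference of 0.90 with an SD of 0.19 in treated and 0.18 in vehicle animals (n = 3 each). Akr7a3 was chosen with its shift known and Akr7a2 differed little, so this separation largely restates that shift and is given as a description.

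Akr1a1 (NM_031000), aldehyde reductase, acts on glucuronate on the route to ascorbate, which rats can make. Its log2 level was 6.59, 6.65 and 6.51 in treated animals, against 6.65, 6.67 and 6.91 in vehicle animals. The highest treated animal and the lowest vehicle animal both stood at 6.65, so the groups just overlapped, and vehicle replicate 3 stood apart from the other 5 animals at the top. The log2 fold change was -0.16 ± 0.10 (SE) with all animals and -0.08 without vehicle replicate 3. The log2 fold change of Akr7a2 was -0.04 without that animal.

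Akr1b1 (NM_012498) was measured by 2 probes. The probe used in the fit had log2 levels of -0.49, -0.29 and -0.25 in treated animals, against -0.17, -0.21 and 0.31 in vehicle animals. The other probe had -2.16, -2.08 and -1.89 in treated animals, against -2.02, -1.77 and -1.25 in vehicle animals. With the first probe the treated animals lay below the vehicle animals by only 0.040, and with the second the groups overlapped. The log2 fold changes were -0.32 ± 0.16 and -0.36 ± 0.20 (SE), so the 2 probes differed by less than either error. Vehicle replicate 3 was the highest animal with both probes, and without it the log2 fold change of the first probe was -0.16.

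Akr1c14 (NM_138547) is the rat 3-alpha-hydroxysteroid dehydrogenase that reduces steroids such as dihydrotestosterone. It was well above background on 0 treated arrays and on 2 of 3 vehicle arrays. Its processed signal was 8.17, 14.1 and 16.4 in treated animals, against 7.02, 17.0 and 19.1 in vehicle animals. These values overlapped, no fold is given, and the gene was not among the features tested. Of the 6 members, 5 genes and 6 of 7 probes passed the filter, which asked for a signal well above background on 3 or more of the 6 arrays.

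**Figure D1:**
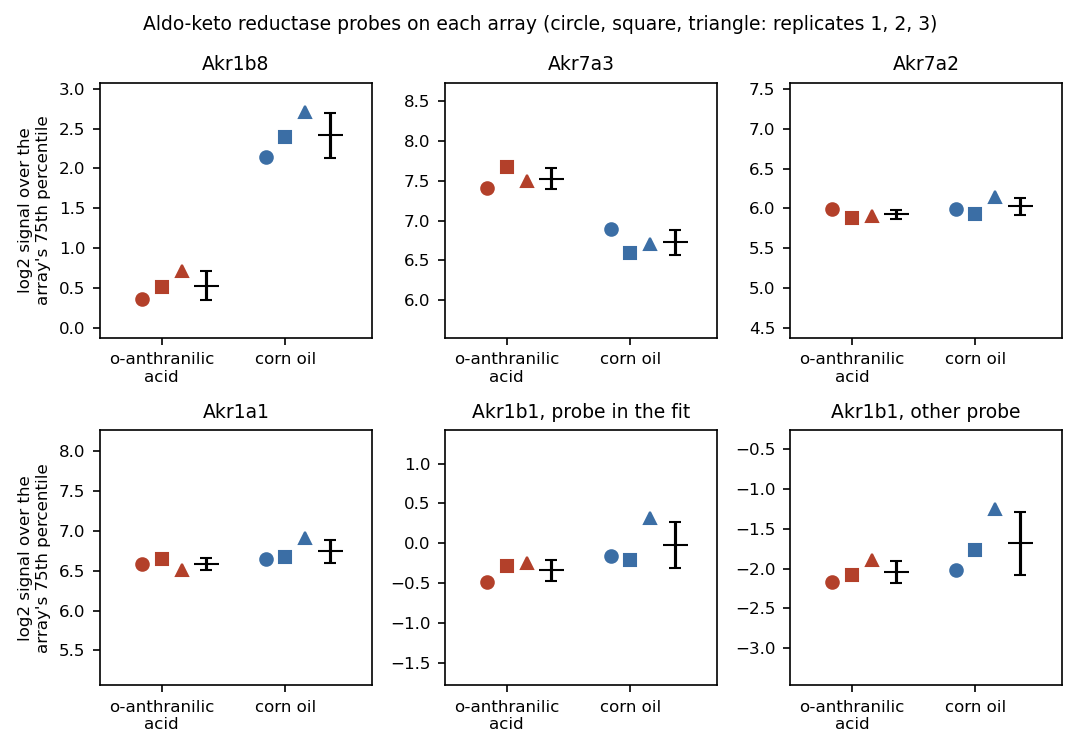
Log2 level (signal over the array's 75th percentile) of the 6 kept probes of Akr1b8, Akr7a3, Akr7a2, Akr1a1 and Akr1b1, with o-anthranilic acid animals in red on the left of each panel and corn oil animals in blue on the right. Each symbol is 1 animal, black bars are mean ± SD, and every panel spans the same log2 range: the groups are far apart for Akr1b8, apart for Akr7a3, and close or overlapping in the other panels.

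Among the 5 kept members the groups did not overlap for 3, of which Akr7a3 was higher and Akr1b8 and Akr1b1 were lower in treated animals. Of all 32859 features, 6.48% did not overlap with higher treated values and 8.13% with lower ones, 14.6% in both directions. Since the family was chosen with this contrast known, nothing is read from the count. limma with Benjamini-Hochberg adjustment called 0 of 32859 features past 0.05 (0% in either direction), and the smallest adjusted p was 0.0846. An unadjusted p under 0.05 was reached by 2699 features or 8.21%, of which 1138 (3.46% of all) were higher and 1561 (4.75% of all) were lower in treated animals.

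Differences between 2 genes on the same array leave out differences in scaling between arrays. Akr7a3 minus Akr1b8 adds up the shifts for which this pair was chosen, and is given as a description. Taken relative to its vehicle mean, this log2 difference was 2.74, 2.85 and 2.47 on the treated arrays and 0.44, -0.12 and -0.32 on the vehicle arrays. Akr1b8 minus Akr1b1, a pair of adjacent genes, was -1.59, -1.63 and -1.47 on the treated arrays and -0.12, 0.16 and -0.04 on the vehicle arrays. Akr1b8 was also chosen with its shift known, so the separation of the groups in this pair is likewise only a description. The spread of this pair's difference was 0.08 in treated and 0.15 in vehicle animals (SD), less than that of Akr1b8 alone, which was 0.18 in treated and 0.28 in vehicle animals. In both groups the animal with the highest Akr1b8 level also had the highest Akr1b1 level with either probe. In vehicle animals this was replicate 3, which was also highest for Akr7a2, at 6.15, and Akr1a1, at 6.91, but not for Akr7a3. In treated animals it was replicate 3 as well, which was not highest for Akr7a2, Akr1a1 or Akr7a3.

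**Figure D2:**
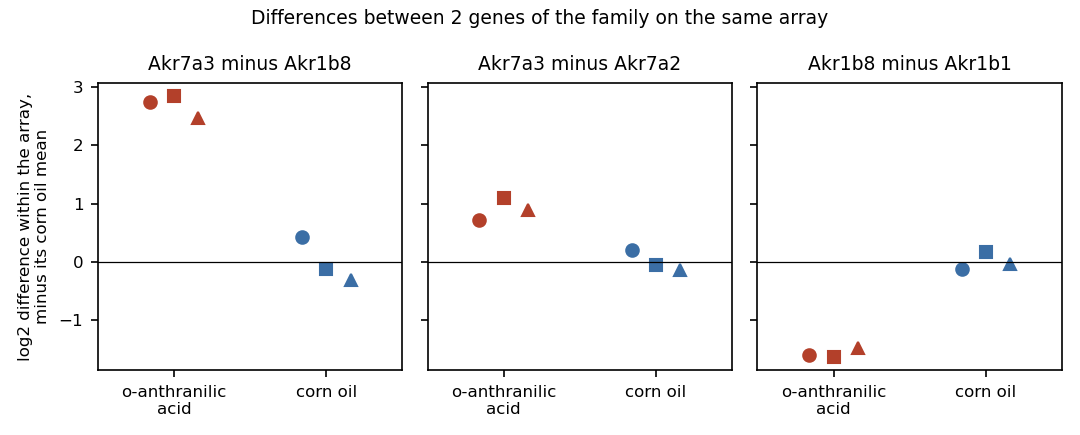
Log2 difference between 2 genes on the same array, minus the mean of the corn oil arrays, for Akr7a3 minus Akr1b8, Akr7a3 minus Akr7a2 and Akr1b8 minus Akr1b1. Red symbols on the left of each panel are o-anthranilic acid arrays and blue symbols on the right corn oil arrays (circle, square and triangle for replicates 1, 2 and 3), and in each panel all treated arrays lie on 1 side of all vehicle arrays. Each pair holds Akr1b8, Akr7a3 or both, which were chosen with their shifts known, so this separation is a description.

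The members differed in how much they varied between animals of 1 group. The pooled SD within groups was 0.09 for Akr7a2 and 0.11 for Akr1a1, lower than the median of 0.14 over all features. It was 0.15 for Akr7a3, and 0.22 for Akr1b1 and 0.24 for Akr1b8. Akr1b8 thus combined the largest shift among the members with the largest spread between animals of 1 group. On the slide that held both groups, which leaves out treated replicate 2, the log2 fold changes were -1.88 for Akr1b8, 0.73 for Akr7a3, -0.08 for Akr7a2, -0.19 for Akr1a1 and -0.35 for Akr1b1. Leaving out 1 animal at a time, Akr1b8 ranged from -2.02 to -1.74 and Akr7a3 from 0.73 to 0.88.

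In the RefSeq order of genes on GRCr8, Akr1b1, Akr1b8, Akr1b10 and Akr1b7 lie side by side on chromosome 4. Akr1b10 (NM_001013084), whose human namesake reduces retinal and lipid aldehydes, had log2 levels of 1.26, -1.98 and 0.95 in treated animals, against 1.12, 2.14 and 1.82 in vehicle animals. The low value was that of treated replicate 2 alone, and a second Akr1b10 probe was also lowest in that animal, at -1.23 beside 0.35 and 0.99 in the other treated animals and 0.22, 0.80 and 0.56 in vehicle animals. With the probe used in the fit, the log2 fold change of Akr1b10 was -1.62 ± 0.87 (SE), with an adjusted p of 0.674 from limma, and -0.59 without treated replicate 2. With the second probe it was -0.49 ± 0.55. There the treated animals other than replicate 2 lay within or above the vehicle values. Akr1b7, a gene known from the mouse vas deferens and adrenal gland, stayed near background on all 6 arrays. Among the 5 protein-coding genes to either side of Akr1b8, 7 were outside the family and 4 of these were measured (Exoc4, Slc35b4, Bpgm and Cald1), with log2 fold changes from -0.11 to 0.08 and none past the threshold.

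Akr7a2 and Akr7a3 are neighbours on chromosome 5. The 7 measured genes outside the family among the 5 to either side of Akr7a3 (Nbl1, Micos10, Capzb, Mrto4, Emc1, Iffo2 and Aldh4a1) had log2 fold changes from -0.20 to 0.26, and none passed, with a smallest adjusted p of 0.726 from limma. Aldh4a1, a mitochondrial dehydrogenase of proline breakdown, was at -0.04.

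The arrays also held 15 other genes of the superfamily, 12 of which passed the filter. Of these 12, 8 had higher and 4 had lower means in treated animals, with a median log2 fold change of 0.22 against -0.01 over all features, and none passed the threshold of limma over all features. With the probe used for each gene, none of the 12 had groups that did not overlap, against 14.6% of all features. The Akr1c genes, which act on steroids and prostaglandins, gave most of the higher means: Akr1c13 had a log2 fold change of 0.65 ± 0.48 (SE), Akr1c12l1 of 0.52 ± 0.43, Akr1c1 of 0.49 ± 0.33 and Akr1c19 of 0.33 ± 0.24. The adjusted p of these 4 from limma lay between 0.723 and 0.772. Each depended on single arrays: without vehicle replicate 1 the log2 fold changes of Akr1c13, Akr1c12l1, Akr1c1 and Akr1c19 were 1.12, 0.92, 0.77 and 0.58, and without vehicle replicate 2 they were 0.22, 0.10, 0.41 and 0.11. Akr1c1 was at 0.77 without treated replicate 1 and at 0.29 without vehicle replicate 3. Akr1c12 and Akr1c15 were at 0.12 ± 0.17 and -0.06 ± 0.22, and Akr1e2, a reductase of 1,5-anhydrofructose, at 0.01 ± 0.10. The potassium channel beta subunits Kcnab2, Kcnab3 and Kcnab1 were at 0.51 ± 0.25, -0.04 ± 0.20 and -0.43 ± 0.20. Kcnab2 was well above background on 3 treated and 2 vehicle arrays. Its processed signals were low, at 30.9 to 43.9 in treated and 19.3 to 34.7 in vehicle animals. With normexp background correction Kcnab2 was at 0.14. Of the other 2 Kcnab1 probes, 1 was at -0.19 and the other was well above background on 1 treated array and on all 3 vehicle arrays, with processed signals of 17.7 to 25.2 in treated and 36.4 to 53.4 in vehicle animals. The sign of the smallest of these turned with 1 array left out. Akr1c15 was at 0.16 without vehicle replicate 2, Kcnab3 at 0.11 without treated replicate 3 and Akr1e2 at -0.036 without treated replicate 2. The other 2 Akr1e2 probes were at -0.10 ± 0.07 and -0.07 ± 0.09. With the first the groups only just failed to overlap, the highest treated animal at 1.0717 and the lowest vehicle animal at 1.0726. With the second the groups overlapped. Akr1c2 was well above background on 2 treated arrays and on 1 vehicle array, and Akr1c3, Akr1d1 and Akr1b7 were not kept.

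**Figure D3:**
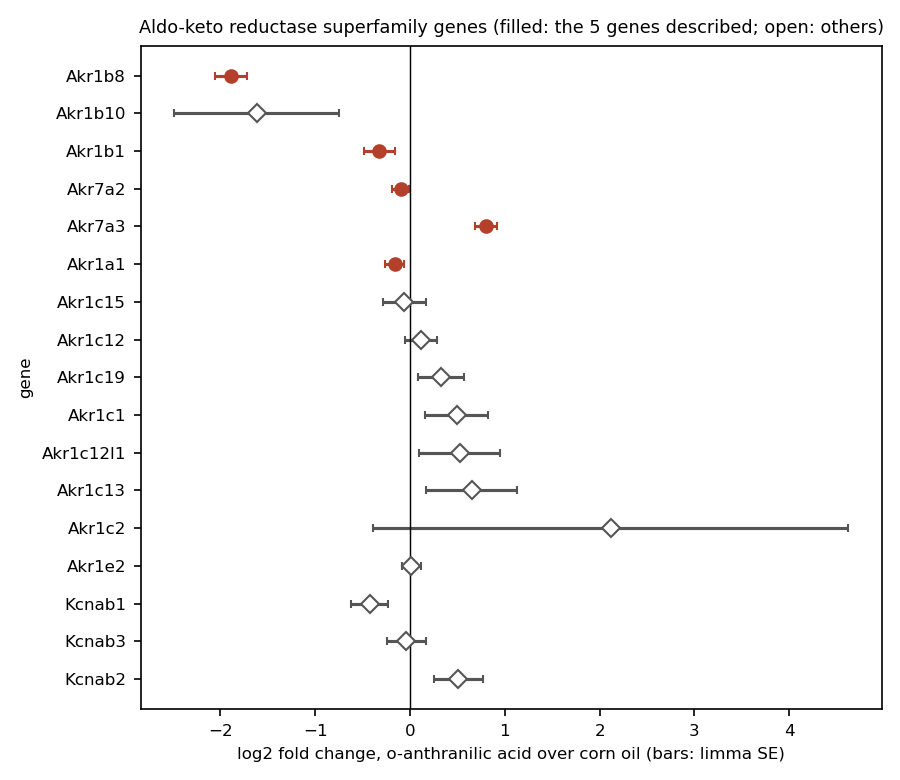
Log2 fold change, o-anthranilic acid over corn oil, of the 17 kept genes of the aldo-keto reductase superfamily, grouped by subfamily, with limma standard errors as bars. Filled red circles are the 5 kept members and open grey diamonds the other 12 genes; Akr1b8 and Akr7a3 lie on opposite sides of 0 with short bars, while Akr1b10 and Akr1c2 have the longest bars.

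The pathways around the family were described by lists of genes, none of which holds a member. The list of Nrf2 targets other than aldo-keto reductases had 35 measured genes, 27 with higher and 8 with lower means in treated animals, and a median log2 fold change of 0.23 against -0.01 over all features. None of them passed over all features by limma. The groups did not overlap for 13, all with higher treated values, against 6.48% of all features. The glutathione transferases Gstm1 and Gstp1 had log2 fold changes of 2.38 ± 0.72 and 1.39 ± 0.24 (SE), and the quinone reductase Nqo1 had 1.28 ± 0.28. Gclm and Gclc, the subunits of glutamate-cysteine ligase, were at 0.91 ± 0.32 and 0.70 ± 0.42. Hmox1, haem oxygenase, had a log2 level of 5.10 in treated replicate 3 and between -1.49 and -1.42 in the other treated animals, against -1.56 to -1.42 in vehicle animals, which gave a log2 fold change of 2.22 ± 1.77. At the low end stood Srxn1, a sulfiredoxin, at -0.35 ± 0.29, and the glutathione transferase Gsta2 at -0.23 ± 0.26. This list was drawn up with results of the same arrays known and is not separate evidence of its direction. Akr7a3, at 0.80, lay between Gclm and Gclc, and Akr1b8, at -1.89, lay below the lowest of the 35.

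The list of other carbonyl and aldehyde enzymes had a median near 0. Its 30 measured genes, mostly alcohol and aldehyde dehydrogenases, had 15 higher and 15 lower means, a median of -0.0024 and none past the threshold. Aldh1b1, a mitochondrial aldehyde dehydrogenase, was highest at 1.32 ± 0.56 (SE), with log2 levels of -0.94, 0.42 and -1.88 in treated animals, against -2.22, -2.36 and -1.78 in vehicle animals. Aldh1l1, of folate metabolism, was at 0.37 ± 0.08, and its groups did not overlap. Cbr1, a carbonyl reductase, was at 0.11 ± 0.17, Aldh6a1 at -0.18 ± 0.10 and Cbr4 at -0.19 ± 0.14.

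Akr1b1 and Akr1a1 act within the polyol and glucuronate pathways. All 15 genes of this list were measured, 7 with higher and 8 with lower means, with a median of -0.06 and none past the threshold. Sord, which oxidises the sorbitol made by Akr1b1, was at -0.11 ± 0.07 (SE), and Miox, which splits inositol, at -0.15 ± 0.09. Ugp2, which makes UDP-glucose, and Cryl1, a gulonate dehydrogenase, were highest at 0.22 ± 0.13 and 0.10 ± 0.16, and Rgn, a gluconolactonase of ascorbate synthesis, was lowest at -0.28 ± 0.50. In the hypertonic response, of which Akr1b1 is a known target through Nfat5, the 8 measured genes had a median of -0.04, 3 higher and 5 lower. The taurine transporter Slc6a6 was at 0.22 ± 0.07 and S100a4 at 0.20 ± 0.14, while the inositol transporter Slc5a3 was at -0.17 ± 0.13 and Hspa4l at -0.36 ± 0.30. None of the 8 passed the threshold.

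Around Akr1c14, the 21 measured genes of steroid and prostaglandin reduction and oxidation had 9 higher and 12 lower means, a median of -0.05 and none past the threshold. The lowest were Hsd17b1, a 17-beta-hydroxysteroid dehydrogenase, at -0.99 ± 0.60 (SE), and Hpgd, which inactivates prostaglandins, at -0.94 ± 0.27. Hsd17b1 had log2 levels of -0.01, 2.13 and 2.09 in treated animals, against 2.14, 2.18 and 2.84 in vehicle animals. Its very low value was that of treated replicate 1 alone. Hpgd had log2 levels of 1.03, 1.69 and 0.92 in treated animals, against 2.37, 1.69 and 2.39 in vehicle animals, and its limma adjusted p was 0.512. The highest were Hsd3b5 at 0.72 ± 0.38, which was well above background on 2 treated arrays and 1 vehicle array, and Hsd17b13 at 0.24 ± 0.20. Srd5a1, the 5-alpha-reductase that makes a substrate of Akr1c14, was at 0.16 ± 0.16.

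**Figure D4:**
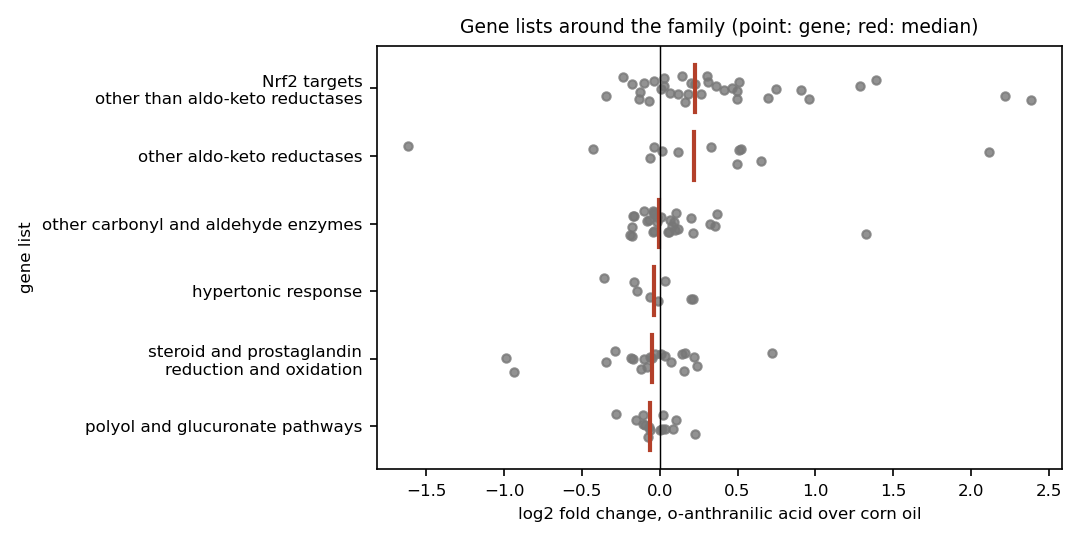
Log2 fold change, o-anthranilic acid over corn oil, of every measured gene of 6 lists around the aldo-keto reductases (members not included); each grey point is a gene and each red line the median of its list. The medians of Nrf2 targets and of other aldo-keto reductases are 0.23 and 0.22, and those of the other 4 lists lie between -0.06 and -0.0024.

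Named genes with profiles most like those of Akr1b8 and Akr7a3 were found by the root mean square difference over the 6 arrays, after each gene's own mean was subtracted, among 11908 named genes. The measure spans both groups, so it favours genes with a like shift between groups and is no separate evidence of likeness between animals. Nearest to Akr1b8 were Mylk3, a myosin light chain kinase, at 0.36, Plaat1, a phospholipid-modifying enzyme, at 0.37, and Lcn9, a lipocalin, at 0.39. Mylk3 and Plaat1 had log2 fold changes of -1.77 and -1.86. Mylk3 had log2 levels of -2.63, -3.01 and -3.10 in treated animals, against -1.37, -1.65 and -0.42 in vehicle animals. Plaat1 had -3.96, -4.38 and -4.67 in treated animals, against -2.37, -2.54 and -2.50 in vehicle animals. In treated animals both ran in the opposite order to Akr1b8, which was at 0.35, 0.52 and 0.72. Lcn9 was well above background on 1 treated array and on all 3 vehicle arrays, so that its treated levels of -6.04, -5.40 and -5.88, against -4.42, -3.79 and -4.47 in vehicle animals, and its place in this order are uncertain. Nearest to Akr7a3 were Abca7, a lipid transporter, at 0.11, Pir, which encodes the iron-binding protein pirin, at 0.12, and Dgat2l6, an acyltransferase-like gene, also at 0.12. Pir had log2 levels of 0.24, 0.42 and 0.56 in treated animals, against -0.13, -0.54 and -0.58 in vehicle animals. Abca7 and Dgat2l6 had log2 fold changes of 0.66 and 0.69.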

How the data were processed

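Renal cortex RNA of 6 rats, 3 treated and 3 vehicle, was measured on single-colour Agilent arrays. The submitters' processing notes name Agilent Feature Extraction 10.7. The deposited scanner files give each spot's intensity (linear, with background subtracted and not yet normalised between arrays) and, per the file headers, flags for outliers, saturation and signal over background. A comparison with these files showed the values in the authors' deposited table to be a ratio, the same signal over each array's 75th percentile. Its columns for replicates 1, 2 and 3 matched the scanner files of replicates 3, 1 and 2 in both groups. Replicates are named by scanner file, which moves no sample between groups.

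Of 61657 non-control probes, 84 external control probes and 47 probes with an outlier flag were left out. Probes were named through RefSeq accessions (27435 named, 15277 symbols). Signals were put on the log2 scale, each array's 75th percentile was subtracted, and probes with a signal well above background on 3 or more of the 6 arrays were kept. For each gene the kept probe of highest mean signal was used, and each unnamed probe stood for itself, giving 32859 features, 11913 of them named. limma 3.58.1 in R 4.3.3 (statmod 1.5.0, jsonlite 2.0.0, and data.table at version 1.17.8) was fitted to all features, treated minus vehicle, with Benjamini-Hochberg adjustment and a threshold of 0.05, and was tested on simulated data. The series' design text calls the 3 samples of a group biological replicates.

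Members and lists were chosen with earlier results of these data known. Named genes were the members, all other genes of the superfamily, the 2 highest and 2 lowest of each list, 7 set genes (Nqo1, Gstp1, Gclc, Gclm, Sord, Cbr1 and Srd5a1), and the 3 profiles nearest to Akr1b8 and to Akr7a3. The 5 neighbours to either side, the within-array differences and the marker Agt were added after the values were seen. Probe sequences were not used, so cross-hybridisation between related genes was not tested. Alternatives were normexp background correction (offset 50, on median signals, since no mean spot signal was used here), quantile and median scaling, the authors' values, the percentile taken over probes detected throughout, other filters, other uses of a gene's probes, array weights, a robust fit with a variance trend, the replicate number or slide as a block, and each array left out.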

Additional observations from a re-analysis of the deposited data

How the results depend on the processing

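The log2 fold changes of Akr1b8, Akr7a3, Akr7a2, Akr1a1 and Akr1b1 kept their sign under all alternatives run, and each moved by less than the spread between replicates. The other settings, apart from leaving out arrays, gave -1.89 to -1.84 for Akr1b8, 0.73 to 0.83 for Akr7a3, -0.12 to -0.08 for Akr7a2, -0.21 to -0.13 for Akr1a1 and -0.36 to -0.28 for Akr1b1. With 1 array left out at a time, the ranges were -2.02 to -1.74, 0.73 to 0.88, -0.14 to -0.04, -0.21 to -0.08 and -0.42 to -0.16. The number of features past the threshold, 0 of 32859, was 5 with normexp background correction, 5 with a robust fit and a variance trend, 3 with the slide as a block, 2 when the probes of a gene were averaged and 1 with the filter of all 6 arrays; it ranged from 0 to 3 with 1 array left out (1 without treated replicate 1, 3 without treated replicate 2 and 3 without vehicle replicate 2). Akr1b8 was among the 5 in both of the first settings, which is no test of it. The other named features were Guca2b, Plaat1, Tm7sf2, Fam111a, Crygd and Cryga, given here after their values were seen, and the rest were probes with no symbol. The median of the Nrf2 targets was 0.17 with the slide as a block, and 0.17 to 0.24 with 1 array left out. That of the polyol and glucuronate pathways was 0.0032 with quantile normalisation, and -0.10 to 0.026 with 1 array left out. That of other carbonyl and aldehyde enzymes was -0.0066 to 0.037 in the other settings, with its sign kept in 7 of 12. It ranged from -0.024 to 0.037 with 1 array left out. That of steroid and prostaglandin genes was -0.088 with normexp background correction, -0.0037 with the slide as a block, and -0.047 to -0.0037 with 1 array left out. The median of the hypertonic response list ranged from -0.077 to 0.015 and that of the other aldo-keto reductases from 0.11 to 0.33 with 1 array left out. The median of the other aldo-keto reductases, 0.22 as reported, was 0.065 with the filter of all 6 arrays, 0.10 with normexp background correction, 0.14 with the slide as a block and 0.33 with no filter. The cause of these movements was not tested, except that the slide as a block is the fit without treated replicate 2. Same-numbered treated and vehicle animals did not deviate together (correlations 0.016, -0.047 and -0.019), and with the replicate block 0 features passed, as without it, and the log2 fold changes of Akr1b8 and Akr7a3 were -1.89 and 0.80.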

Other observations

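Of the 7 measured Akr1c genes, which lie on chromosome 17, Akr1c2, Akr1c1, Akr1c13 and Akr1c19 had their highest values in the same 3 animals, which came from both groups. The probe of Akr1c2 (NM_001013057) was well above background in treated replicates 2 and 3 and vehicle replicate 1, with processed signals of 1089, 651 and 576, and not in treated replicate 1 and vehicle replicates 2 and 3, with 6.32, 17.7 and 4.92. Akr1c1 had log2 levels of 5.79, 6.60 and 6.66 in treated animals, against 6.41, 5.70 and 5.46 in vehicle animals. Its 3 highest animals were the same 3 in which Akr1c2 was well above background. Akr1c13 had log2 levels of 2.97, 3.91 and 3.34 in treated animals, against 3.71, 1.90 and 2.66 in vehicle animals, and its other probe had 0.49, 2.22 and 1.73 in treated animals, against 1.85, -0.05 and 0.11 in vehicle animals. The 3 highest animals were again the same with both Akr1c13 probes, and also for Akr1c19, at 1.98, 2.32 and 2.19 in treated animals, against 2.34, 1.41 and 1.76 in vehicle animals. Akr1c12l1 followed this in part, with 2.06, 2.60 and 1.89 in treated animals, against 2.45, 0.81 and 1.72 in vehicle animals, so that treated replicate 1 stood above treated replicate 3. Akr1c12 and Akr1c15 did not show it. Akr1c12 had -3.15, -2.64 and -2.70 in treated animals, against -3.03, -3.10 and -2.71 in vehicle animals. Akr1c15 had -2.35, -2.48 and -2.62 in treated animals, against -2.86, -1.98 and -2.44 in vehicle animals, so that vehicle replicate 1 was its lowest animal. Akr1e2, on the same chromosome, varied little, from 4.49 to 4.67 in treated and from 4.47 to 4.72 in vehicle animals. These animals were picked out by their values and form no group of the study, the genes are close relatives, and the part of cross-hybridisation in the pattern was not tested.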
